A study of Ictidomys tridecemlineatus with 15 samples.

Results

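Photoreceptor precursors are the cells of the developing retina that have left the cell cycle and will become cones or rods. They descend from neurogenic progenitors, the dividing cells that give rise to neurons, and switch on the transcription factors of the photoreceptor lineage before any visual pigment or other part of the light response is made. In most rodents the great majority of them become rods, the receptors of dim light, whereas the 13-lined ground squirrel (13LGS, Ictidomys tridecemlineatus) is active by day and has a cone-rich retina. Cones are among the first cell types to be born in the vertebrate retina, together with retinal ganglion cells, the output neurons, and horizontal cells, the lateral interneurons of the outer retina, so the precursors present before birth are the early end of photoreceptor development.

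The cells described here were those that the authors annotated as photoreceptor precursors at embryonic day 21 (E21), E24 and E26, shortly before birth at E27. They numbered 825 of 14108 cells in 6 libraries of these ages and of 53394 cells in the whole matrix. Each library held cells of whole retinas, prepared with the 10x Chromium 3′ v3.1 kit, in which a unique molecular identifier (UMI) marks every captured mRNA molecule. All embryos came from timed-pregnant captive dams and were staged against mouse Theiler stages. No treatment or genetic change was given for any group, neither strain nor sex was given, and how many embryos or litters a library pooled was not given. There were 2 libraries at each age, called a and b here. The letters stand for cell-name suffixes, which do not show the labelled replicate numbers, and since nothing says that the libraries came from separate litters, the p-values measure the spread between libraries only, which may be technical.

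The deposited files do not pair gene names with the rows of the count matrix, so genes are given by their row number, counted from 1. The defining markers of the class (Otx2, Crx, Neurod1, Prdm1 and Rxrg) could therefore not be looked up, and the label itself was not checked. How alike the cells of the class were is described with expression profiles, which is no check of the annotation, since the annotation was made from these same counts. Each cell was thinned at random to 2000 UMIs and compared, by Pearson's r across rows, with the mean profiles of 10 annotated classes built from the other libraries. Of 760 precursors with at least 2000 UMIs, 696 (91.6%) were nearest to the precursor profile, 52 (6.84%) to neurogenic progenitors and 12 (1.58%) to primary progenitors. None was nearest to ganglion or horizontal cells. None was nearest to amacrine or bipolar cells, Müller glia, cones or rods, whose profiles came from libraries after birth. No ganglion cell, horizontal cell, neurogenic progenitor or primary progenitor was nearest to these later profiles either, so this was not particular to precursors. Library E24a stood apart. In it 78.1% of precursors were nearest to the precursor profile and 47 of 256 to neurogenic progenitors, whereas the share nearest to the precursor profile was 85.7% in E21b, 95.7% in E24b, 99.0% in E26b and 100% in E21a and E26a. In the other direction, 166 of 1304 neurogenic progenitors (12.7%) were nearest to the precursor profile.

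The 825 precursors carried 3705679 UMIs in all, between 851 and 28395 in a cell. Summed UMIs over precursors came to 101995 in E21a, 170654 in E21b, 1165708 in E24a, 455683 in E24b, 858674 in E26a and 952965 in E26b. The E21 sums, from 18 and 22 cells, were thus the smallest by far, and rows with few UMIs could be compared with E21 only coarsely. Between 0 and 8 cell barcodes were shared by any pair of the 6 libraries, and none was a precursor in both.

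The first question was when precursors appear and how many there are. They were 0.978% of cells in E21a (95% Wilson interval 0.619 to 1.54%) and 1.40% in E21b (0.930 to 2.12%). At E24 they were 9.69% in E24a (8.64 to 10.8%) and 3.65% in E24b (2.89 to 4.59%), and at E26 they were 6.42% in E26a (5.69 to 7.23%) and 9.22% in E26b (8.07 to 10.5%). Both E21 libraries lay below all 4 later ones, whereas the ranges of E24 and E26 overlapped and the intervals of libraries of the same age did not meet at E24 or at E26. At E18, in a single library, 0 of 5522 cells were annotated as precursors. Here 3 cells would be a share of 0.0543%, and the upper Wilson limit was 0.0695%. The intervals and these limits hold for counting error alone. The paper, which also profiled chromatin accessibility in single cells, describes photoreceptor precursors as present from E18 to P12.

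The share was not shown to rise with embryonic day. Over the 6 libraries Spearman's rho was 0.72 (exact two-sided permutation p = 0.178, adjusted over 2 relations with age 0.178) and Pearson's r was 0.81 (exact permutation p = 0.0667, adjusted 0.0667), where the smallest p-values possible were 0.0222 and 0.0111. When the 2 libraries of E21, those farthest from the median age, were left out, r was 0.24 over 4 libraries, so the relation rested on E21. With the E18 library added, rho was 0.83 (exact permutation p = 0.0381, n = 7). The median UMIs per cell of a whole library ran the other way from the share, at 9437, 11868, 6035, 10999, 5230.5 and 8011 in the same order of libraries (r = -0.74 and rho = -0.66 with the share, exact permutation p = 0.106 and 0.175, n = 6). Its part in the result was not tested. When the 64 precursors nearest to a progenitor profile were left out, 56 of them from E24a, the share of E24a was 7.66% and that of E24b 3.49%, with rho at 0.84 (exact permutation p = 0.0667, n = 6) and r at 0.89 (exact permutation p = 0.0333, unadjusted).

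The ratio to neurogenic progenitors gave a similar picture. Per 100 precursors and neurogenic progenitors together, precursors were 8.33 in E21a, 12.2 in E21b, 53.5 in E24a, 31.8 in E24b, 35.1 in E26a and 61.5 in E26b. The E21 values lay below all later ones, and E24 and E26 overlapped here too. With embryonic day this ratio gave r = 0.83 (exact permutation p = 0.0333, unadjusted) and rho = 0.84 (exact permutation p = 0.0667, n = 6). Precursors per horizontal cell went from 0.136 and 0.139 at E21 to 0.629 and 0.251 at E24 and 0.306 and 0.422 at E26. 

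**Figure D1:**
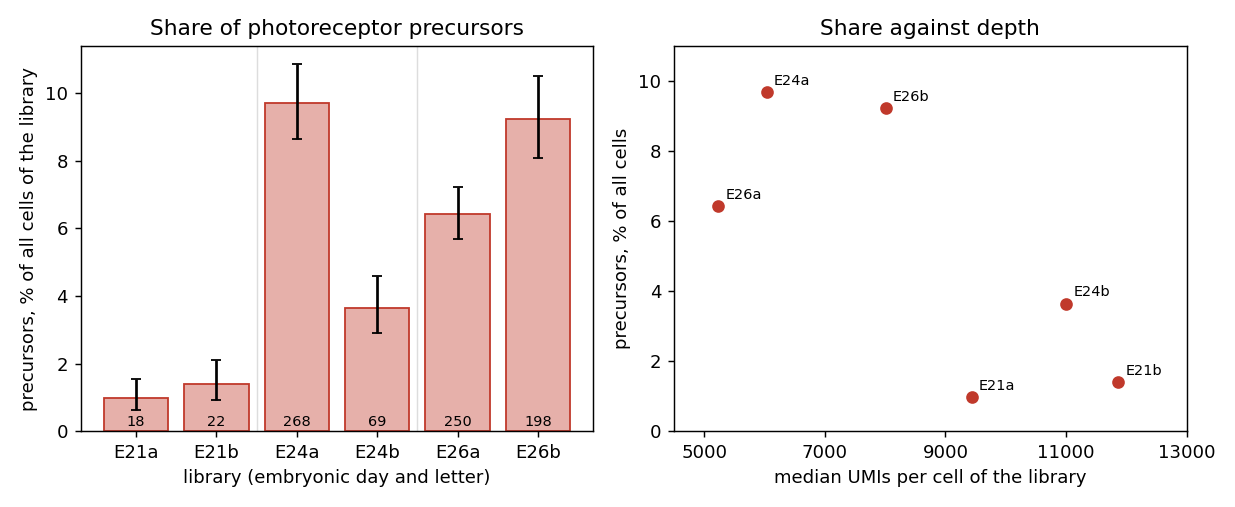
Left, photoreceptor precursors as a percentage of all cells in each of the 6 libraries; bars are shares, error bars 95% Wilson intervals, and the number in each bar is the count of precursors. Right, the same shares against the median UMIs per cell of the library. Both E21 libraries are below 1.5% and all later ones above 3.5%, and the 3 libraries with the highest shares have the 3 lowest medians.

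The next comparison was of the RNA content of precursors and of the classes around them. Precursors had median UMIs per cell of 5027.5 in E21a, 7546 in E21b, 3511.5 in E24a, 5172 in E24b, 2837.5 in E26a and 4289.5 in E26b. The medians of neurogenic progenitors in the same libraries were 7165.5, 9684, 6074, 8529, 4571.5 and 6478.5, higher than precursors in every library. Within a library precursors held on average 0.655 times the UMIs of neurogenic progenitors (range 0.578 to 0.779, lower in 6 of 6 libraries, exact two-sided sign-flip permutation p = 0.03125, adjusted over 3 classes 0.0469). Against ganglion cells, the class richest in RNA, the ratio was 0.397 (range 0.326 to 0.536, lower in 6 of 6 libraries, exact permutation p = 0.03125, adjusted 0.0469). Against horizontal cells it was 0.884 (range 0.808 to 1.08, lower in 5 of 6 libraries, E21b being the exception, exact permutation p = 0.0625, adjusted 0.0625), which did not pass. With 6 libraries 0.03125 is the smallest p this test can give. Precursors thus had fewer UMIs per cell than the progenitors they come from, and a difference from horizontal cells was not shown.

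The number of different gene rows per cell followed this depth. As counted, precursors had 0.752 times the rows of neurogenic progenitors, 0.514 times those of ganglion cells and 0.917 times those of horizontal cells, each lower in 6 of 6 libraries. Once every cell was thinned to 2000 UMIs, which left out 65 of 825 precursors, 19 of 1323 neurogenic progenitors, 8 of 4581 ganglion cells and 65 of 2278 horizontal cells, the ratios were 0.983 (range 0.959 to 1.03), 0.924 (0.905 to 0.941) and 1.01 (0.972 to 1.05). The exact permutation p-values adjusted over 3 classes were 0.281, 0.0938 and 0.500 (n = 6), so none passed, although precursors had fewer rows than ganglion cells in 6 of 6 libraries. Against ganglion cells the unadjusted exact permutation p was 0.03125, the smallest possible. After adjustment it could pass only if another class also reached this smallest p. At equal depth the median precursor showed 1098, 1095, 1025, 1091, 1084 and 1084 rows in the 6 libraries, with E24a lowest.

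**Figure D2:**
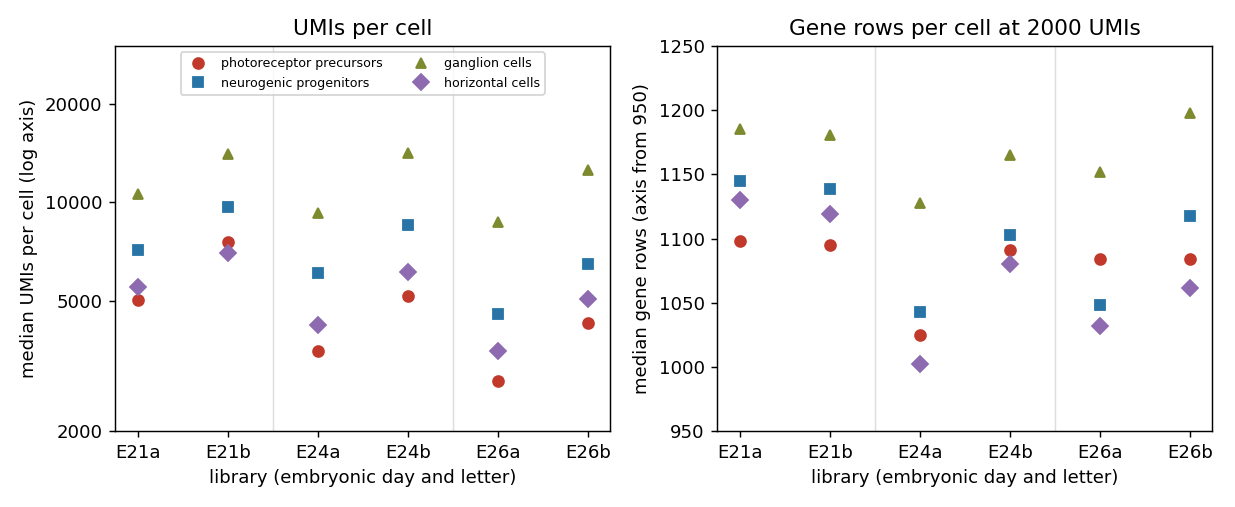
Left, median UMIs per cell of 4 classes in each library, on a log axis. Right, median number of gene rows with a UMI after every cell was thinned to 2000 UMIs, on an axis that starts at 950. Precursors lie below neurogenic progenitors and ganglion cells in UMIs in every library, and at equal depth below ganglion cells in every library, at 1025 to 1098 rows.

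Which genes set precursors apart is described next, with no test, because the annotation was made from these same counts. Counts were summed over the cells of a class in a library and given as CPM, that is, counts scaled to a total of 1000000 UMIs. The classes compared were neurogenic and primary progenitors, ganglion cells and horizontal cells. Of 3086 rows with a mean of at least 50 CPM in precursors, 22 were at least 4-fold higher in precursors than in every class compared in each of the 6 libraries, and 38 were at least 2-fold higher. The reverse was counted in a different set, the rows with a mean of at least 50 CPM in each class compared. In that set 1 row was at least 2-fold lower in precursors than in all of these classes in each library. In the retina of P12 to P21, in other libraries, 18 of the 22 rows (81.8%) were highest in cones or rods, with 9 in each, 2 in bipolar cells and 2 in amacrine cells. Among all 3086 rows 33.2% were highest in cones or rods. Of the 38 rows, 76.3% were highest there.

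The row with the highest ratio to any other class was row 12760. Its level in precursors was 78.4 CPM in E21a, 52.7 in E21b, 94.4 in E24a, 142.6 in E24b, 214.3 in E26a and 200.4 in E26b. All E26 values lay above all E24 values, and these above E21, while neurogenic progenitors, ganglion cells and horizontal cells stayed at 5.8 CPM or less in every library. Lack of overlap was common among the 8311 rows tested for age in precursors. It was seen for 37.4% between E21 and E24, 44.1% between E21 and E26 and 36.6% between E24 and E26. The mean of row 12760 in precursors was 130.5 ± 66.5 CPM (SD, n = 6). The next class, amacrine cells, stood at 2.59 CPM, which is 1 UMI in E26a, so the ratio of 50.3 that ranked the row is only roughly known. A UMI of row 12760 was found in 6 of 40 precursors at E21 (15%, Wilson 7.06 to 29.1%), 103 of 337 at E24 (30.6%, 25.9 to 35.7%) and 199 of 448 at E26 (44.4%, 39.9 to 49.0%). In neurogenic progenitors, which had more UMIs per cell, the shares were 0 of 356, 1.05% and 3.24%, and in horizontal cells, of similar depth, 0 of 290, 0.856% and 0.466%. At 2000 UMIs per cell the shares of precursors were 13.2%, 17.8% and 32.0%. After birth the row was not confined to photoreceptors, since bipolar cells of P12 to P21 held between 27.1 and 165.0 CPM and cones between 4.8 and 150.9 CPM. The rows whose levels over 30 combinations of class and library were most like it were row 26625 (Pearson's r = 0.973) and row 10691 (r = 0.971), of 4608 rows compared. The points share libraries and depth, and no test was made.

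Row 30961 came second, at 49.2 times neurogenic progenitors, the next class. It stood at 29.4 and 17.6 CPM at E21, 66.9 and 74.6 CPM at E24 and 167.7 and 101.8 CPM at E26. The ages did not overlap, as was so for 36.6 to 44.1% of rows tested per pair of ages. The E21 values were 3 UMIs in each library. A UMI was present in 4 of 40 precursors at E21, 64 of 337 at E24 and 147 of 448 at E26, against 1.54% of neurogenic progenitors and 0.265% of ganglion cells at E26. In the later retina this row marked photoreceptors of both kinds, at 213 to 344 CPM in cones and 134 to 299 CPM in rods.

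How far precursors had taken on the expression of finished photoreceptors was followed with lists made from the cones, rods and other types of P12 to P21, in 4 libraries without embryonic cells. A row entered a list if it was at 50 CPM or more and at least 4-fold above the types it was compared with. The 60 photoreceptor rows were high in both cones and rods, with no limit on the ratio of cones to rods. A row could therefore also be among the cone or rod rows. The row that contributed most in precursors was in the photoreceptor and the cone list, so these lists are not independent. The 26 cone rows were high in cones over rods, the 28 rod rows in rods over cones and the 35 bipolar rows in bipolar cells only. Photoreceptor, cone and rod rows were set against bipolar, amacrine and ganglion cells and Müller glia, but not against horizontal cells. Horizontal cells held 1400 CPM of the cone rows in library P12a and 1091 CPM in P12b.

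The photoreceptor rows together held 2745 CPM in precursors of E21a, 1934 in E21b, 2970 in E24a, 4183 in E24b, 5816 in E26a and 5011 in E26b. Neurogenic progenitors held between 279 and 519 CPM, ganglion cells between 407 and 478 CPM and horizontal cells between 891 and 1379 CPM. Precursors were thus above each of these classes in every library, and E26 lay above E24, and E24 above E21, without overlap, an order that was not tested. A single row carried between 23.9 and 54.6% of the precursor sum. Without it the sums were 1245, 1061, 2145, 2809, 4410 and 3815 CPM, in the same order of ages, and at E21 those of precursors and horizontal cells then overlapped. Of the 60 rows, 55 had a UMI in these precursors, 30 reached a mean of 10 CPM and 15 a mean of 50 CPM. The median of the 60 rows was 0.67 higher in precursors than in neurogenic progenitors on the log2(CPM + 10) scale, against 0.03 over 9499 rows. The finished cells were far higher still, at 28171 CPM in cones and 40929 CPM in rods.

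The cone rows held 1873, 1219, 1275, 1929, 2277 and 1696 CPM in precursors of the 6 libraries, where neurogenic progenitors held 165 to 223 CPM and horizontal cells 511 to 630 CPM, and the ages overlapped. The same single row, row 15341, which was named after its values were seen, made up 61.7 to 80.1% of these sums. Without it the cone rows came to 373, 346, 450, 555, 871 and 501 CPM in precursors, and to 624, 597, 503, 554, 561 and 527 CPM in horizontal cells, so that precursors were above horizontal cells by more than 1 CPM in E26a only. The rod rows held 265 CPM in E21a, 193 in E21b, 150 in E24a, 182 in E24b, 196 in E26a and 191 in E26b, against 87 to 118 CPM in neurogenic progenitors. In E21a this sum rested on 27 UMIs and in E21b on 33. Cones of the later retina held 21310 CPM of cone rows and rods 24731 CPM of rod rows. The median over neurogenic progenitors was 0.30 for cone rows and 0.05 for rod rows on the log2(CPM + 10) scale, and 8 of 26 cone rows against 2 of 28 rod rows were at least 2-fold higher in precursors. Whether the lists differ was not tested. The bipolar rows held between 997 and 1549 CPM in precursors and 433 to 562 CPM in neurogenic progenitors, with 55.0 to 70.9% of the precursor sum from 1 row.

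**Figure D3:**
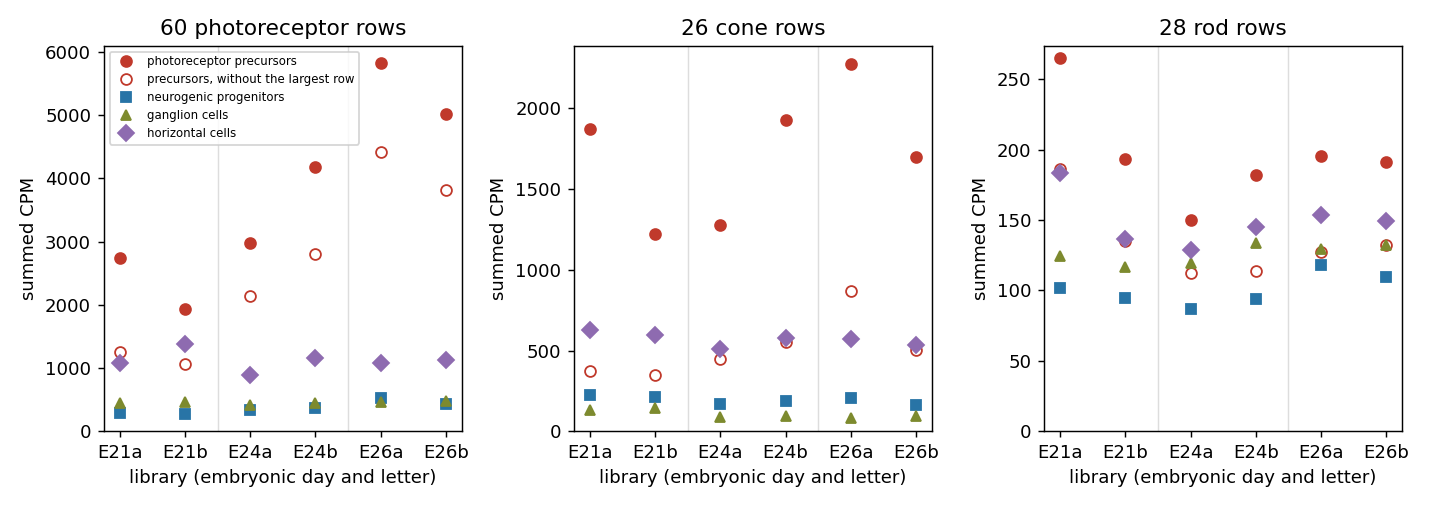
Summed CPM of the photoreceptor, cone and rod rows of the P12 to P21 retina, in 4 classes of each embryonic library; open circles show precursors without the row that contributes most. Filled red circles lie highest in every panel and library; for photoreceptor rows they go from 1934 to 2745 CPM at E21 to 5011 to 5816 CPM at E26, and for rod rows they stay between 150 and 265 CPM.

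Cells were next placed between progenitors and cones. The position of a cell was its Pearson's r with the cone profile of P12 to P21 minus its r with the neurogenic progenitor profile of the other embryonic libraries, over 10109 rows and at 2000 UMIs, so that a value below 0 is nearer to the progenitor. The median position of precursors was -0.0640 in E21a, -0.0772 in E21b, -0.0656 in E24a, -0.0480 in E24b, -0.0341 in E26a and -0.0424 in E26b. Every median was below 0, and 14 of 760 precursors were above it, of which 12 in E26a. With embryonic day Pearson's r was 0.87 (exact two-sided permutation p = 0.0444, adjusted over 2 relations 0.0667) and Spearman's rho was 0.84 (exact permutation p = 0.0667, adjusted 0.133, n = 6), so a rise in position did not pass after adjustment. Without the 2 E21 libraries r was 0.80 over 4 libraries. The median r of precursors with the cone profile was 0.507 and 0.497 at E21, 0.522 and 0.502 at E24 and 0.515 and 0.512 at E26. With the neurogenic progenitor profile it was 0.571 and 0.578, 0.587 and 0.550, and 0.548 and 0.553. The position mixes both parts, and their separate relations with age were not tested. In position, ganglion cells went from -0.0563 and -0.0640 at E21 to -0.0355 and -0.0406 at E26, while neurogenic progenitors lay between -0.122 and -0.102 throughout. The position ran against the median UMIs per precursor (r = -0.70 and rho = -0.60, exact permutation p = 0.107 and 0.242, n = 6). Whether it is particular to precursors or follows depth was not tested.

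**Figure D4:**
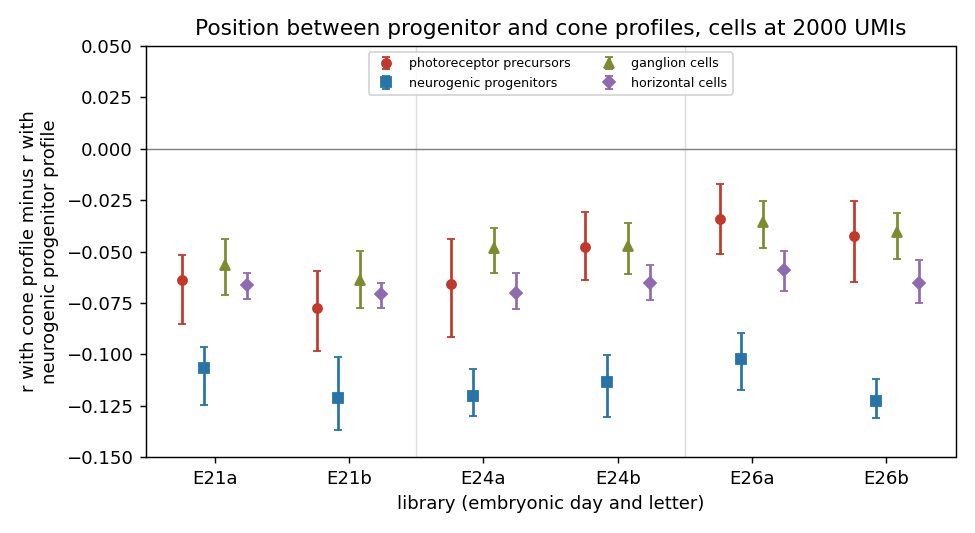
Median position of cells between the neurogenic progenitor profile (negative) and the cone profile (positive) in each library, with lines from the first to the third quartile over cells. Precursors have medians of -0.0772 to -0.0341, above neurogenic progenitors in every library and close to ganglion cells. Ganglion cells lie nearer to the cone end than precursors in every library except E26a.

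Between cones and rods the precursors leaned little. With both profiles thinned to the same number of UMIs, the median r with cones minus r with rods was 0.00078 in E21a, 0.00075 in E21b, 0.0017 in E24a, 0.0027 in E24b, 0.0036 in E26a and 0.0033 in E26b, and 64.7 to 92.8% of precursors were nearer to cones. Neurogenic progenitors also leaned to cones, at 56.3 to 78.2% of cells. The difference between both classes was 0.0010 ± 0.0010 (SD, n = 6), higher in precursors in 5 of 6 libraries, and an exact permutation over signs, two-sided, gave p = 0.0625, which did not pass. The rod profile rested on 14 to 89 rods in each library of P12 to P21.

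Changes with age within precursors were tested with edgeR's quasi-likelihood test on counts summed per library, and rows with a Benjamini-Hochberg adjusted p below 0.05 were called. From E21 to E26, 67 of 8311 rows were called (0.806%), of which 46 rose (0.553% of rows tested) and 21 fell (0.253%). DESeq2 called 43 rows, and 40 were called by both tools. Most of the rows that rose were highest in photoreceptors of the later retina. Of the 46 rows that rose, 27 (58.7%) were highest in cones or rods at P12 to P21, against 33.4% of all rows tested. In cones alone 18 of the 46 (39.1%) were highest, against 11.3% of all rows tested. In rods alone 9 of the 46 (19.6%) were highest, no more than the 22.1% of all rows tested. Of the 21 that fell, 4 were highest in cones or rods and 7 in Müller glia, where 1145 of all 8311 rows tested were highest. Of 31 photoreceptor rows tested 7 rose and none fell, of 13 cone rows 1 rose, of 11 bipolar rows 1 rose, and none of 5 rod rows passed. The median change was 0.69 on the log2(CPM + 10) scale for the 60 photoreceptor rows and -0.05 over all 9499 rows. Of the 22 rows at least 4-fold higher in precursors 8 rose. The number of calls was sensitive to single libraries. It was 18 without E21b, 117 without E26b, 196 without E24a and 209 without E24b, and 19 of 2063 rows passed when all sums were thinned to the size of the smallest.

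Row 29759 had the largest fitted rise. It was among 5 of the 46 higher rows that were at 0 UMIs at E21, for which a fitted change is no size. It had no UMI in either E21 library, then 37.7 and 37.3 CPM at E24, and 136.3 and 74.5 CPM at E26. Pooled over libraries this was 0 UMIs at E21 and 188 at E26, at least 9.43-fold higher when E21 is set at 3 UMIs over the group (edgeR adjusted p = 0.00306, DESeq2 adjusted p = 0.00803). A UMI was present in 36 of 337 precursors at E24 (10.7%) and 103 of 448 at E26 (23.0%). At E26 the shares were 2.90% in neurogenic progenitors and 0.530% in ganglion cells. After birth the row climbed further in the data, to between 1098 and 4235 CPM in cones of P12 to P21 against 69.1 to 215 CPM in rods. The call was lost without E21b (adjusted p = 0.0821).

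Row 21155 was at 0 in both E21 libraries, at 43.8 and 39.5 CPM at E24 and at 80.4 and 65.1 CPM at E26. From E21 to E26 it was at least 6.57-fold higher (edgeR adjusted p = 0.00334), and from E21 to E24 at least 3.87-fold higher (adjusted p = 0.0465). It was found in 85 of 448 precursors at E26 (19.0%) and in 2.56% of neurogenic progenitors. In cones of P12 to P21 it stood at 620 to 1306 CPM. The call for E26 was lost without E21b (adjusted p = 0.100), and that for E24 without either E21 library, without cells above 2 times the median UMIs of their library and class (adjusted p = 0.0519) and in DESeq2 (adjusted p = 0.177).

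The largest fall was that of row 9073. Precursors held 1275 CPM of it in E21a and 809 in E21b, but 12.9 and 21.9 CPM at E24 and 22.1 and 19.9 CPM at E26. The log2 change was -5.87 ± 0.32 (SE) from E21 to E24 (edgeR adjusted p = 1.14e-09) and -5.52 ± 0.30 from E21 to E26 (adjusted p = 1.09e-09), and both calls held without any of the libraries in turn and in DESeq2. The signal came from most cells, with a UMI in 33 of 40 precursors at E21 (82.5%, Wilson 68.0 to 91.3%), 24 of 337 at E24 (7.12%) and 36 of 448 at E26 (8.04%). At 2000 UMIs per cell the shares were 76.3%, 3.08% and 5.29%. At E21 the row was also present in horizontal cells, at 111 and 157 CPM, and in neurogenic progenitors, at 82.3 and 85.9 CPM, and in both classes it was at 27.3 CPM or less in every E24 and E26 library. At E18 it stood at 14.7 CPM in neurogenic progenitors and 15.4 CPM in primary progenitors. In precursors of P4 to P12 it lay between 5.5 and 14.7 CPM. High levels were therefore seen at E21 alone among these ages, and highest in precursors.

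Row 9067 followed the same course at a lower level, with 68.6 and 46.9 CPM at E21, 1.7 and 2.2 CPM at E24 and 1.2 and 3.1 CPM at E26 (log2 change from E21 to E26 -4.46 ± 0.85, SE, edgeR adjusted p = 0.00935, and from E21 to E24 -4.63 ± 0.89, adjusted p = 0.0308). Its E21 level rested on 15 UMIs, the first call was lost without E21a, E21b, E26a or E26b, the second was kept only without E24b and was lost without cells above 2 times the median UMIs (adjusted p = 0.128), and DESeq2 gave the row no adjusted p.

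From E21 to E24, 18 of 8311 rows were called (0.217%), of which 10 rose (0.12% of rows tested) and 8 fell (0.0963%), and DESeq2 called 14, 11 of them the same. The count was between 7 and 53 when a library was left out, and each library moved it by more than 1.5 times, with 7 without E21a, 9 without E21b, 50 without E24a, 53 without E24b, 42 without E26a and 46 without E26b. Row 26828 rose from 9.8 and 5.9 CPM at E21 to 93.5 and 96.6 CPM at E24, and stood at 140.9 and 170.0 CPM at E26. The fitted log2 change from E21 to E24 was 3.78 ± 0.60 (SE, adjusted p in edgeR = 0.00553). Its E21 level rested on 2 UMIs, 1 in each library, so the size of the rise is only roughly known. Row 26828 was no photoreceptor row. At E21 horizontal cells held 248 and 259 CPM and ganglion cells 245 and 256 CPM of it, and rods of P12 to P21 were at 0. The call was lost without E21b (adjusted p = 0.314) and in DESeq2 (adjusted p = 0.0983).

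From E24 to E26, 4 of 8311 rows were called (0.0481%), 1 higher (0.012% of rows tested) and 3 lower (0.0361%), while 574 had an unadjusted p below 0.05 and DESeq2 called 1. The count rested on single libraries and on the filter, with 7 without E21a, 10 without E21b, 15 without E24a, 33 without E24b, 6 without E26a, 25 without E26b and 38 of 21448 rows without a filter. Of the 3 lower rows, the 2 with the largest change are given. Row 16096 went from 13.7 and 26.3 CPM to 62.9 and 78.7 CPM (log2 change 1.94 ± 0.33, SE, edgeR adjusted p = 0.0382). It was at 0 in both E21 libraries, and at P12 to P21 bipolar cells held 1762 to 8882 CPM of it and cones 271 to 796 CPM. Row 11665 went from 83.2 and 57.1 CPM to 11.6 and 21 CPM (log2 change -2.19 ± 0.34, adjusted p = 0.0266). Primary progenitors held 347 to 427 CPM of it at E24 and E26, and Müller glia of P12 to P21 1454 to 12079 CPM. Row 573 went from 112.4 and 136.1 CPM to 48.9 and 48.3 CPM (log2 change -1.36 ± 0.24, adjusted p = 0.0382), and primary progenitors held 415 to 472 CPM at these ages. Both lower rows were thus higher in progenitors. Each of these 3 calls was lost in DESeq2 (adjusted p = 0.684, 0.443 and 0.333), without cells above 2 times the median UMIs of their library and class, and without the precursors nearest to a progenitor profile (adjusted p = 0.0981, 0.185 and 0.516), which were in E24a for 56 of 64 cells. They were also lost without E24a or E26b for row 16096, without E24a or E26a for row 11665, and without E26a or E26b for row 573.

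**Figure D5:**
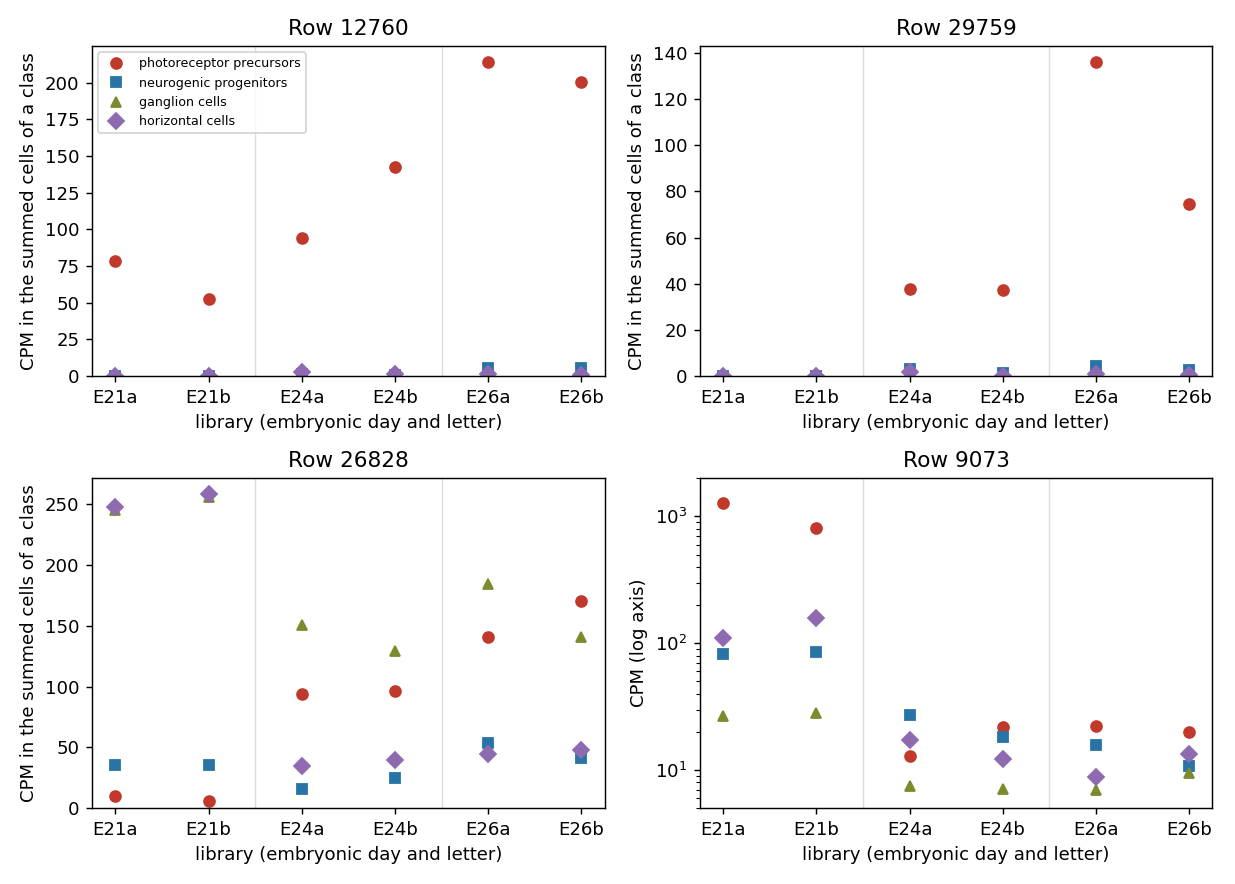
CPM of 4 rows in the summed cells of 4 classes of each library, with a log axis for row 9073. Row 12760 was the row with the highest ratio of precursors to any other class (52.7 to 214.3 CPM in precursors), rows 29759 and 26828 were called higher later, and row 9073 was called lower, from 809 to 1275 CPM at E21 to 12.9 to 22.1 CPM later.

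The last comparison asked whether precursors changed with age in another way than the classes beside them, by an interaction test in edgeR with library as a block. Against neurogenic progenitors, the change from E21 to E26 differed for 37 of 11394 rows (0.325%), with 24 higher and 13 lower in precursors. Of these, 11 were also among the 67 rows called with age. Against ganglion cells 162 of 15442 rows were called (1.05%), 132 higher and 30 lower, and against horizontal cells 179 of 11148 rows (1.61%), 116 higher and 63 lower. The split depended on scaling. With DESeq2's size factors in place of TMM it was 14 higher and 20 lower against neurogenic progenitors, 99 and 44 against ganglion cells and 90 and 85 against horizontal cells, and the median over all rows moved from 0.12 to 0.01, from 0.21 to 0.12 and from 0.14 to 0.05 on the log2 scale. The first count was 8 without E21b, 23 without E26a and 129 without E26b. The second was 45 without E21b, 103 without E26a and 105 without E21a, and the third 39 without E21b, 71 without E26a, 107 without E21a and 113 without E26b.

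Row 9073 fell more in precursors than in neurogenic progenitors (log2 difference -2.93 ± 0.41, SE, edgeR adjusted p = 1.30e-07) and kept its call without any of the libraries in turn. Row 25779 went from 9.8 and 11.7 CPM at E21 to 99.0 and 50.4 CPM at E26 in precursors, and from 7.1 and 8.4 CPM to 3.6 and 0.8 CPM in neurogenic progenitors (log2 difference 4.41 ± 0.86, adjusted p = 0.000858, lost without E21b). It stood at 93.1 to 159 CPM in cones of P12 to P21 and 50.7 to 211 CPM in rods. Row 2054 went from 0 and 5.9 CPM to 24.5 and 24.1 CPM in precursors while neurogenic progenitors went from 40.6 and 33.6 CPM to 9.7 and 5.8 CPM (fitted log2 difference 4.85 ± 1.01, adjusted p = 0.00237, lost without E21a or E21b). Its E21 level in precursors was 1 UMI, and the fitted difference ran from 4.06 to 10.08 with a library left out, so it is no size. Row 9352 went from 58.8 and 64.5 CPM to 11.6 and 15.7 CPM in precursors and from 41.2 and 57.7 CPM to 46.7 and 65.2 CPM in neurogenic progenitors (log2 difference -2.28 ± 0.57, adjusted p = 0.0328, lost without E21a, E21b, E24a or E26a). The directions of these 4 rows were the same with both scalings.

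Against ganglion cells, row 18533 had no UMI in precursors at E21 and stood at 58.2 and 55.6 CPM at E26, where ganglion cells were at 24.2 and 19.8 CPM and then 20.5 and 27.9 CPM (edgeR adjusted p = 0.000529). Row 25387 went the other way, from 9.8 and 23.4 CPM to 3.5 and 2.1 CPM in precursors and from 3.2 and 3.4 CPM to 37.0 and 36.6 CPM in ganglion cells (adjusted p = 0.000313). Its precursor levels were 1 and 4 UMIs at E21 and 3 and 2 UMIs at E26, so the change in precursors is only roughly known. Against horizontal cells, row 10245 had no UMI in precursors at E21 and 23.3 and 9.4 CPM at E26, while horizontal cells went from 438 and 916 CPM to 131 and 112 CPM (adjusted p = 6.33e-07). Row 26273 went from 39.2 and 17.6 CPM to 7.0 and 4.2 CPM in precursors and from 4.1 and 3.5 CPM to 35.3 and 16 CPM in horizontal cells (adjusted p = 0.000427). Its precursor levels were 4 and 3 UMIs at E21 and 6 and 4 UMIs at E26, so this fall is only roughly known. The calls of rows 18533, 25387 and 10245 were lost without E21b and that of row 26273 without E21a.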

How the data were processed

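Single-cell RNA-Seq was performed on whole 13LGS retinas. Per the study's methods and the submitters' processing notes, the authors used Cell Ranger 3.1.0 on the HiC_Itri_2 assembly and Seurat 4.0.4, and annotated clusters from marker genes. GRCm38 is also listed, with no role. The authors deposited raw UMI counts per gene and cell, not normalized. Not given in the sources used here: cell filters, doublet removal and any depth subsampling on aggregation. No doublet caller was run. The matrix had 34181 rows, and the list of 30265 gene names carries no row numbers.

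A library was the cells of a time point with the same name suffix. P1 (2 suffixes for 1 sample, 6920 cells) is not analysed here. Early-stage and late-stage neurogenic progenitors were pooled. Counts were summed per library and class (at least 10 cells) and tested in edgeR 4.0.16 (TMM, filterByExpr, glmQLFit, glmQLFTest, all 6 libraries in 1 fit), with DESeq2 1.42.0 as alternative, in R 4.3.3. Other tests were exact permutations over libraries (Python 3.11.15, scipy 1.17.1). Scripts were tested on simulated data. Named rows were the 2 called rows with the largest rise and the 2 with the largest fall per comparison, among rows with a mean of at least 10 CPM whose groups did not overlap, and the 2 rows with the highest ratio to any other class at 50 CPM or more with the 2 rows most like the first. The members and lists were chosen with earlier results of these data known.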

Additional observations from a re-analysis of the deposited data

Results flagged for a closer look

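The change from E21 to E26 differed between precursors and another class, by the interaction test in edgeR, for 37 rows against neurogenic progenitors, 162 against ganglion cells and 179 against horizontal cells. Against neurogenic progenitors the named rows had log2 differences of 4.85 (row 2054), 4.41 (row 25779), -2.93 (row 9073) and -2.28 (row 9352). Against ganglion cells they were 10.85 (row 18533), 10.69 (row 21543), -6.04 (row 25387) and -5.79 (row 26960). Against horizontal cells they were 9.76 (row 10245), 9.11 (row 2297), -4.89 (row 26273) and -4.66 (row 18018). Rows 18533, 21543, 10245 and 2297 had no UMI in precursors at E21, so their fitted differences depend on the prior count and are not sizes. Row 2054 had 1 UMI in precursors at E21, and row 26960 had 1 at E26, and with a library left out their fitted differences ran from 4.06 to 10.08 and from -10.17 to -4.55, so these are not sizes either. The differences of rows 25779, 25387 and 26273 rested on few UMIs in precursors at E21 and are only roughly known. Row 2297 stood at 43.1 and 24.1 CPM in precursors at E26 and at 1.6 and 4.2 CPM in horizontal cells, and was lost without E21a, E21b or E26a (edgeR adjusted p = 0.0172 with all). Row 21543 stood at 5.8 and 11.5 CPM in precursors at E26, with ganglion cells at 29.8 and 24.9 CPM at E21 and 4.7 and 5.7 CPM at E26 (adjusted p = 0.0154, lost without E21a, E21b or E26b). The remaining calls, of row 26960 (adjusted p = 0.00923, lost without E21b or E26b) and row 18018 (adjusted p = 0.0224, lost without E21a, E21b, E26a or E26b), rested on 9.8 to 23.4 CPM and 11.7 to 19.6 CPM in precursors at E21.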

How the results depend on the processing

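The 2 E21 sums, from 18 and 22 cells, limit every comparison with E21. No paired analysis was possible because the cell-name suffixes do not show which labelled replicate a library is, so libraries of different ages could not be paired by number; classes were compared within each library. Of 75 alternative values of single tests, 56 kept direction and side of the threshold, and of 67 alternative counts of calls, 26 were within 1.5 times of the reported count, and in 5 the majority of calls turned direction (4 of them against neurogenic progenitors, with 14 higher and 20 lower under DESeq2-type size factors, not 24 and 13). The cause of the other changes was not tested, except that fewer libraries or rows were tested where a library was left out or sums were thinned.

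Without thinning, log2 ratios of gene rows per cell were -0.41 (neurogenic progenitors), -0.96 (ganglion cells) and, reversed, -0.12 (horizontal cells), all with an exact permutation p = 0.03125 (n = 6). The share gave rho = 0.83 with E18 added. The cone position gave rho = 0.96 with rows of at least 50 CPM, and cone minus rod likeness gave 0.0013 at 1000 UMIs and 0.0021 with rows of at least 50 CPM (exact permutation p = 0.0222, 0.03125 and 0.03125, n = 6).

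Calls for E24 against E21, E26 against E21 and E26 against E24 were 62, 214 and 38 of 21448 rows without a filter, 9, 19 and 0 of 2063 with thinned sums (87 unadjusted for the last), and 14, 43 and 1 in DESeq2. With embryonic day as covariate 109 rows were called. Without cells above 2 times the median UMIs E26 against E24 gave 0 (edgeR, 388 unadjusted). Without precursors nearest a progenitor profile, an alternative chosen after seeing the data, the counts were 30, 94 and 1. Differences with neurogenic progenitors were 21 without a filter and 8 with thinned sums, and with thinned sums 14 (ganglion cells) and 15 (horizontal cells).

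With a library left out, the counts ran from 7 to 53, 18 to 209 and 6 to 33 for the ages, and 8 to 129, 45 to 165 and 39 to 143 for neurogenic progenitors, ganglion and horizontal cells. The log2 ratios of UMIs per cell ran from -0.66 to -0.58 (neurogenic progenitors) and -1.42 to -1.27 (ganglion cells), lower in 5 of 5 libraries each, where 0.0625 is the smallest p possible.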
